A study of Homo sapiens with 6 samples.

Results

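The 10 long non-coding RNAs (lncRNAs) described here are *NEAT1*, *MALAT1*, *H19*, *KCNQ1OT1*, *MEG3*, *TUG1*, *HOTAIR*, *PVT1*, *HOTTIP* and *UCA1*, each found by its gene name among the 39739 gene rows of the expression tables. They were chosen by name as well-known nuclear or cancer-related transcripts, with earlier results of these data known. Of the 10, 9 had enough signal to be tested among 23299 genes. *MEG3* did not. RNA-seq was performed on HGC27 cells, an established human gastric cancer cell line, with 3 libraries for each of the HGC27-control and HGC27-FN1 3′-UTR cells. The latter stably overexpressed the 3′-UTR of *FN1*, the gene of the matrix protein fibronectin, from a lentivirus. The control cells were the comparison without it, and the study selected its stable cells with puromycin. All 6 libraries are therefore of 1 cell line, and nothing in the sources says that the 3 replicates of a group came from separate cultures, so p-values measure only the spread between these libraries.

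Long non-coding RNAs are transcripts without a long open reading frame that can act as scaffolds of nuclear bodies, guide chromatin complexes, or bind miRNAs and proteins in the cytoplasm. *NEAT1* builds paraspeckles and *MALAT1* resides in nuclear speckles, where splicing factors gather. *H19*, *KCNQ1OT1* and *MEG3* are imprinted, which means that they are transcribed from the copy inherited from 1 parent, and *HOTAIR* and *HOTTIP* arise within the HOXC and HOXA clusters. *PVT1*, *TUG1* and *UCA1* have been studied widely in tumours, and *UCA1* was named for its abundance in bladder cancer.

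Expression was deposited as RPKM, which divides the reads of a gene by the length of its exons in kilobases and scales it to a depth of 1000000 assigned reads. Because these values are whole multiples of 1 read, the reads behind each could be recovered. The libraries held between 16357085 and 37037532 assigned reads, with HGC27-FN1 3′-UTR replicate 1 the smallest. Differences below are on the scale of log2(RPKM + 0.1), as HGC27-FN1 3′-UTR minus HGC27-control, and p-values are those of limma with Benjamini-Hochberg adjustment over all 23299 tested genes. A gene is said to have risen or fallen at an adjusted p under 0.05. The scale understates the change of genes with little signal. *FN1* itself, counted over the whole gene, averaged 0.780 RPKM against 0.516 RPKM (limma, adjusted p = 0.0292).

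*H19* and *UCA1* rose in HGC27-FN1 3′-UTR cells, and the other 7 tested lncRNAs did not pass the test. Over all tested genes, 13.0% passed it in either direction, 5.62% rose and 7.36% fell, and the 2 of 9 that rose stand beside the 5.62%. Among the 1144 tested genes that carry a lncRNA name of GENCODE release 29, 8.48% passed in either direction and 3.67% rose. Any lncRNA row under another name is not among them. The median difference of the 9 lncRNAs was 0.12, against -0.04 over all tested genes and -0.02 over those 1144. The values of the HGC27-FN1 3′-UTR and HGC27-control libraries did not overlap for 5 of the 9, namely *H19*, *UCA1*, *TUG1*, *HOTTIP* and *PVT1*, where 36.0% of all tested genes did so. Of these 5, *PVT1* was lower and the other 4 were higher, beside 21.7% lower and 14.3% higher over all tested genes. With 3 libraries against 3, an exact permutation test of 1 gene cannot go below a two-sided p of 0.1.

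**Figure D1:**
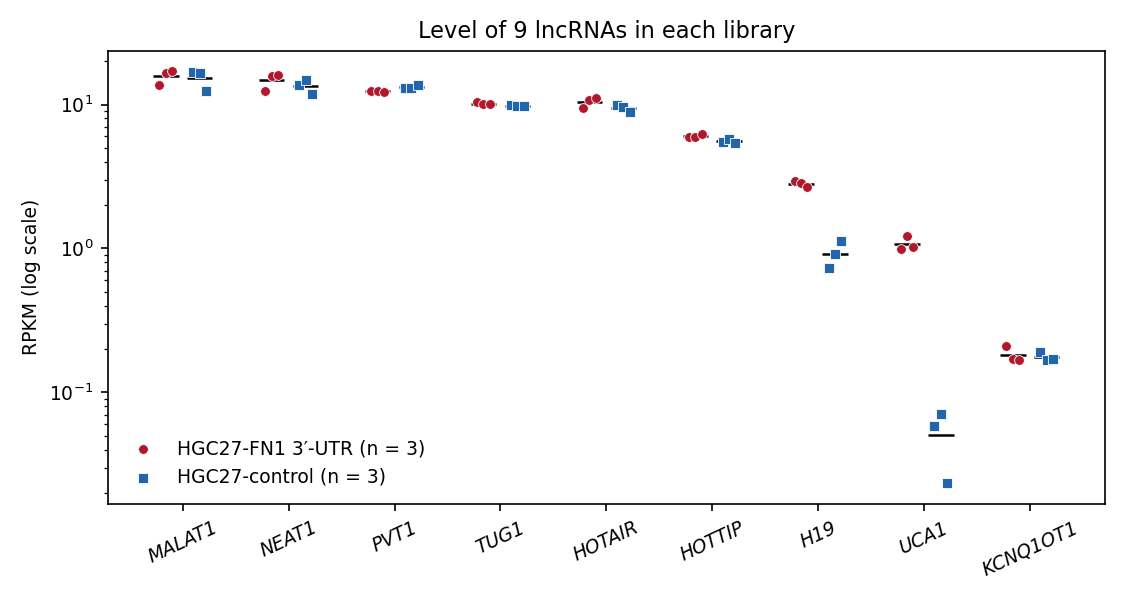
RPKM on a log scale of the 9 tested lncRNAs in each library, ordered by their mean over 6 libraries, with HGC27-FN1 3′-UTR libraries as circles, HGC27-control libraries as squares and group means as black lines. *H19* and *UCA1* are the lncRNAs whose groups lie far apart, with *UCA1* between 0.984 and 1.21 RPKM against 0.0235 to 0.0706 RPKM.

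**Figure D2:**
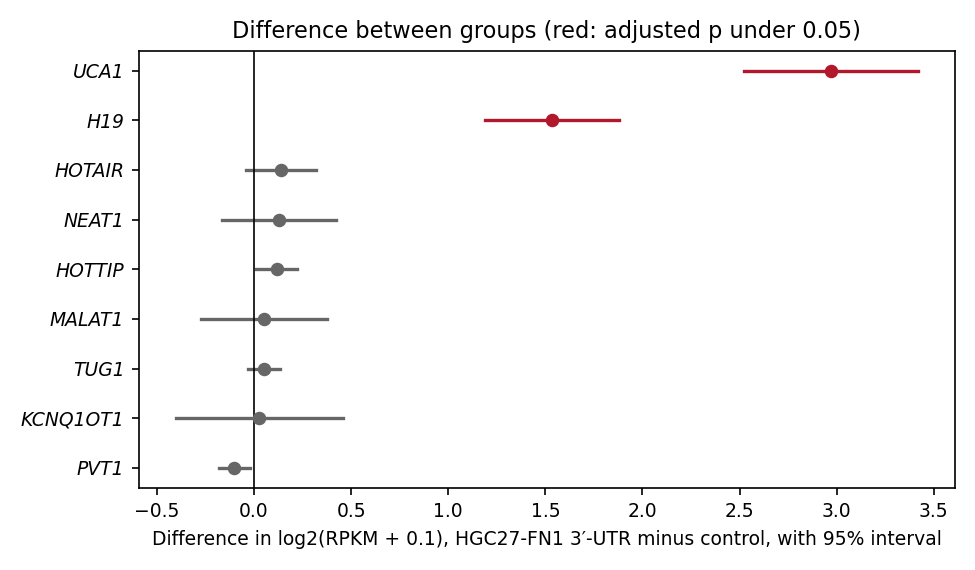
Difference in log2(RPKM + 0.1) of each tested lncRNA, HGC27-FN1 3′-UTR minus HGC27-control, with its 95% interval from the limma fit, in red where the adjusted p was under 0.05. The interval of *UCA1* runs from 2.52 to 3.42 and that of *H19* from 1.19 to 1.88, and the intervals of the other 7 all lie between -0.40 and 0.46.

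*UCA1* lies on chromosome 19 from 15828961 to 15836320 (GRCh38, plus strand), with 3 merged exons of 2299 bases in all. Its level was 0.984, 1.21 and 1.03 RPKM in HGC27-FN1 3′-UTR replicates 1, 2 and 3, from 37, 68 and 69 reads. In the HGC27-control libraries it was 0.0584, 0.0706 and 0.0235 RPKM, from 3, 5 and 2 reads. Each HGC27-FN1 3′-UTR library was thus far above each control, while the control level rested on 10 reads in all. The difference was 2.97 ± 0.19 (SE, n = 3 per group; limma, adjusted p = 7.77e-04), and the mean RPKM was 21.1-fold higher. Pooled reads per assigned read gave a ratio of 22.4, with an exact 95% interval from 11.9 to 47.6 that covers counting error only. The fitted difference depended on the pseudocount, since it was 0.98 with a pseudocount of 1 and 4.25 with 0.01. It was 4.41 when voom was run on the recovered reads, and the call held in each.

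A row on the opposite strand, AC004510.3, shares 489 exon bases with *UCA1*. It held 4, 25 and 21 reads in HGC27-FN1 3′-UTR replicates 1 to 3 and 1 read in each control, and it rose by 2.67 (limma, adjusted p = 0.0166). Whether counting used the strand is not given in the sources used here, so reads of these overlapping genes cannot be told apart. *UCA1* also holds repeated sequence. In its longest GENCODE 29 transcript of 2687 bases, 214 of the 2663 words of 25 bases occur again in the same transcript, and how reads from such sequence were assigned is not known here.

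*H19* lies on chromosome 11 from 1995163 to 2001470 (minus strand) with 4 merged exons of 2825 bases in all. Its level was 2.94, 2.84 and 2.69 RPKM in HGC27-FN1 3′-UTR replicates 1 to 3, from 136, 196 and 222 reads. The HGC27-control libraries had 0.729, 0.919 and 1.12 RPKM, from 46, 80 and 117 reads. The HGC27-FN1 3′-UTR libraries lay close together and the control libraries were more spread, with a coefficient of variation of 4.49% against 21.1%. The mean was 3.06-fold higher, a difference of 1.53 ± 0.14 (SE, n = 3 per group; limma, adjusted p = 0.00280).

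*H19* is also the precursor of a miRNA, whose mature forms are shown because they lie inside the raised transcript. RefSeq (GRCh38.p14) places miR-675-5p on chromosome 11 from 1996800 to 1996822 and miR-675-3p from 1996768 to 1996787, both on the strand of *H19* and within its merged exon 2 of 4 in the deposited row. The seed, bases 2 to 8, is in capitals.
miR-675-5p: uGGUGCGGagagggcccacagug
miR-675-3p: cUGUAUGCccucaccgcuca
The level of the mature miRNA cannot be read from these mRNA libraries, and none of the gene rows carries the name of its gene, *MIR675*.

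Short rows for conserved pieces of *H19* were counted separately, and H19_1 and H19_2 are listed on the strand opposite to *H19*. H19_2, which covers bases 3919 to 3987 from the start of *H19* and a further position on a scaffold outside the assembled chromosomes, held 148 reads in HGC27-FN1 3′-UTR libraries and 70 in controls. It rose by 1.51 (limma, adjusted p = 0.00798). H19_3, with positions on the same scaffold and elsewhere on chromosome 11, rose by 2.06 on 79 and 27 reads (adjusted p = 0.0155). H19_1 had 30 and 23 reads, with overlapping groups and an adjusted p of 0.185. The scaffold positions mean that part of *H19* has a near-copy in this assembly, so reads could have been shared or lost between them.

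The study dealt with miRNAs that the *FN1* 3′-UTR may bind, namely miR-296-3p, let-7i-5p, miR-629-5p and miR-423-5p, and lncRNAs are often studied as binders of miRNAs. Matches to their seeds were therefore counted in the longest GENCODE 29 transcript of each of the 10 lncRNAs, in the sense direction. The miRNAs are given 5′ to 3′ from RefSeq (GRCh38.p14) with the seed in capitals.
let-7i-5p: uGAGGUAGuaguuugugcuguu
miR-423-5p: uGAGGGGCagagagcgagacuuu
miR-629-5p: uGGGUUUAcguugggagaacu
miR-296-3p: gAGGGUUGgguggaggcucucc
The 7-base match sought was CTACCTC for let-7i-5p and GCCCCTC for miR-423-5p. It was TAAACCC for miR-629-5p and CAACCCT for miR-296-3p. Of the 40 pairs of lncRNA and miRNA, 14 had at least 1 match, and *MALAT1*, *TUG1*, *PVT1* and *HOTTIP* had no match of any of the 4.

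The raised transcripts had no match to let-7i-5p, a match that 12.1% of lncRNA transcripts within a factor of 1.2 of the length of *H19* carried and 13.9% of those near the length of *UCA1*. Their matches to the other miRNAs are shown with the match in capitals, 15 bases before it and 1 base after it. In *H19* there was 1 match to miR-423-5p, in exon 5 of 5 of the transcript (chromosome 11, 1995234 to 1995240), where 22.2% of transcripts of like length had at least 1.
H19 miR-423-5p match: cccatctcgctctgtGCCCCTCc
In *UCA1* there were 2 matches to miR-423-5p, in exon 1 (chromosome 19, 15829074 to 15829080) and exon 3 (15836045 to 15836051), and 4.67% of like transcripts had as many. The 2 windows are part of the repeated sequence and share 22 of 23 bases.
UCA1 miR-423-5p match in exon 1: cagccctataaagctGCCCCTCt
UCA1 miR-423-5p match in exon 3: aagccctataaagctGCCCCTCt
*UCA1* also had 2 matches to miR-296-3p in exon 3 (15834760 to 15834766 and 15835912 to 15835918), a number that 1.75% of like transcripts reached.
UCA1 miR-296-3p match, upstream: cagacaaacaacctaCAACCCTt
UCA1 miR-296-3p match, downstream: ccccaactgatcaatCAACCCTg
These are matches of letters in a transcript, with no measurement of binding. The 4.67% and 1.75% of *UCA1* were the lowest such shares among the 40 pairs searched, and no allowance was made for that number.

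*NEAT1* and *MALAT1* are neighbours on chromosome 11, *NEAT1* from 65422774 to 65445540 and *MALAT1* from 65497762 to 65506516, each with 1 merged exon on the plus strand. *NEAT1* was at 12.5, 15.7 and 16.05 RPKM in HGC27-FN1 3′-UTR replicates 1 to 3 and at 13.7, 14.8 and 11.8 RPKM in the controls. The groups overlapped, and the difference was 0.13 with a 95% interval from -0.16 to 0.42 (limma, adjusted p = 0.544). *MALAT1* was at 13.8, 16.5 and 17.0 RPKM against 16.8, 16.5 and 12.5 RPKM. Its groups overlapped too, with a difference of 0.05, an interval from -0.27 to 0.38 and an adjusted p of 0.840. These intervals leave room for changes of either sign, for *NEAT1* from 0.892-fold to 1.34-fold.

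The 2 nuclear lncRNAs varied more within groups than most genes. The within-group coefficient of variation was 12.5% for *NEAT1* and 13.5% for *MALAT1*, where the median of tested genes within a factor of 1.5 of their level was 4.3% and 4.2%, and 94.7% and 96.1% of those genes varied less. Both were lowest in HGC27-control replicate 3, at 83.7% and 80.6% of their mean, and next lowest in HGC27-FN1 3′-UTR replicate 1, at 88.7% and 88.9%. The ratio of *MALAT1* to *NEAT1* stayed between 1.05 and 1.22 across the 6 libraries. *MALAT1* and the long form of *NEAT1* end in a triple helix in place of a poly(A) tail, and the libraries were made for mRNA. The summed level of 22 RNAs listed as lacking a poly(A) tail ranged from 203 to 682 RPKM. It was 212 in HGC27-FN1 3′-UTR replicate 1 and 319 in HGC27-control replicate 3. The lowest sum, 203, was that of HGC27-FN1 3′-UTR replicate 2, where *NEAT1* and *MALAT1* stood at 111% and 106% of their means. Of these RNAs, 3 of 21 tested rose and 0 fell in the limma fit, 14.3% beside 13.0% of all tested genes. At an unadjusted p under 0.05, 4 were higher and 0 lower, a rule whose share over all tested genes was not counted. By voom 3 were called higher and 1 lower, beside 2042 higher and 3066 lower of all 23299 tested genes. The 3 that rose were histone genes, *HIST1H1C*, *HIST1H2BK* and *HIST1H2BD* (limma, adjusted p = 0.0108, 0.00703 and 0.0497). The other 18 were not called, among them *RN7SK*, *RN7SL1* and *RPPH1*. Whether the histone reads came from forms with a tail was not tested. The part of the 22 listed RNAs in the spread of *NEAT1* and *MALAT1* was not tested.

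**Figure D3:**
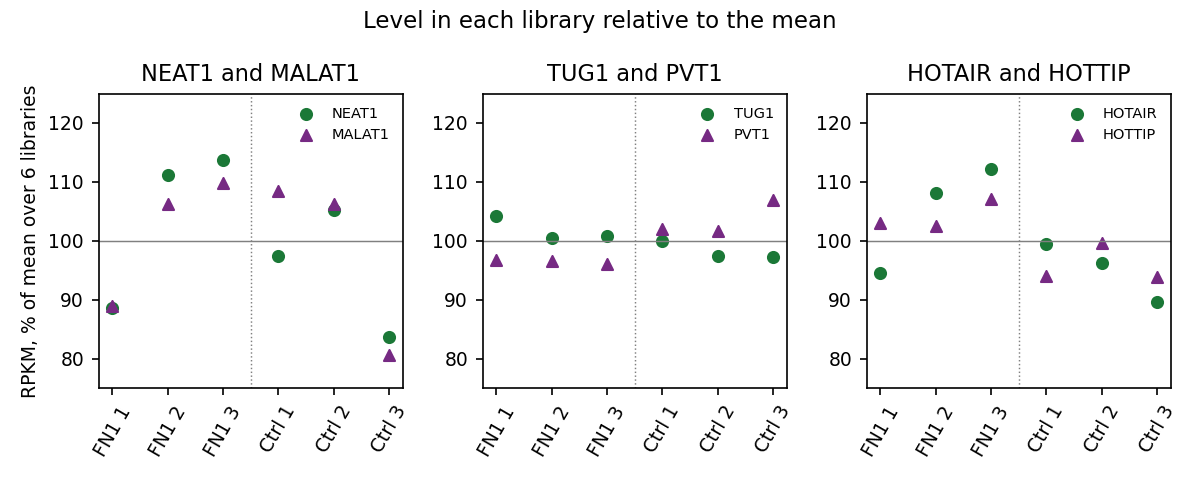
RPKM of 6 lncRNAs in each library as a percentage of their mean over the 6 libraries, with HGC27-FN1 3′-UTR replicates left of the dotted line and control replicates right of it. *NEAT1* and *MALAT1* dip together in FN1 replicate 1 and control replicate 3, *TUG1* and *PVT1* stay between 96.0% and 107%, and *HOTTIP* is above 100% in each HGC27-FN1 3′-UTR library.

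Short rows inside *NEAT1* were also counted, and whether their reads are among those of the *NEAT1* row is not known here. NEAT1_1, NEAT1_2 and NEAT1_3 cover bases 500 to 619, 865 to 969 and 1187 to 1345 from its start and held 1183, 267 and 2696 reads in HGC27-FN1 3′-UTR libraries. In the controls they held 1438, 299 and 3036 reads. Scaled for depth and length, they were slightly higher in HGC27-FN1 3′-UTR cells, with differences of 0.05, 0.20 and 0.15. Their groups overlapped and none of the 3 passed the test, with adjusted p from 0.123 to 0.714 in the limma fit. All 3 lie near the 5′ end, in sequence common to the short and long forms, which the gene rows do not separate. The 3 let-7i-5p matches of *NEAT1* lie further on, at bases 13427, 14750 and 14932 of its 22743-base transcript, and are shown because *NEAT1* was the most highly expressed of the lncRNAs with such a match.
NEAT1 let-7i-5p match at 13427: gcctcggtggacttaCTACCTCt
NEAT1 let-7i-5p match at 14750: tagcgaagggaagccCTACCTCa
NEAT1 let-7i-5p match at 14932: ctggtcttggtctgtCTACCTCg
They span chr11:65436224-65436230, chr11:65437547-65437553 and chr11:65437729-65437735, and 3 of the 10 other lncRNA transcripts of like length had as many.

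Proteins of paraspeckles and nuclear speckles were compared as well. Of 39 tested paraspeckle protein genes 3 rose and 2 fell, with a median difference of 0.00. *RBM3*, a cold-inducible RNA-binding protein, rose by 0.31 (limma, adjusted p = 0.00630), and *FAM98A* and *SRSF10* rose by 0.20 and 0.18. *AKAP8L* fell by 0.30 (adjusted p = 0.00360) and *CIRBP*, the other cold-inducible member, fell by 0.18. The core paraspeckle proteins *SFPQ*, *NONO* and *PSPC1* were not called. Of 28 nuclear speckle and splicing genes 5 rose and 2 fell, with a median of 0.06. *PNN*, which encodes pinin, rose most at 0.35 (adjusted p = 0.0183) and the SR proteins *SRSF6* and *SRSF5* rose by 0.20 and 0.20. *SRPK2*, a kinase of SR proteins, fell by 0.29 (adjusted p = 0.00447). The called genes were 12.8% of the paraspeckle list and 7 of 28 of the speckle list, beside 13.0% of all tested genes.

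*KCNQ1OT1* lies on chromosome 11 from 2608328 to 2699994, minus strand, as 1 exon of 91667 bases that is antisense to the potassium channel gene *KCNQ1*. It was at 0.210, 0.170 and 0.168 RPKM in HGC27-FN1 3′-UTR libraries and 0.191, 0.169 and 0.170 RPKM in controls. The groups overlapped and the difference was 0.03, with an interval from -0.40 to 0.46 (limma, adjusted p = 0.938). The low RPKM comes with a very long row, since 1145 and 1446 reads lay behind the 2 groups. *KCNQ1* had 36 and 100 reads, with 0.0924, 0.124 and 0.155 RPKM against 0.350, 0.253 and 0.258 RPKM. Its groups did not overlap, and its difference of -0.79 had an adjusted p of 0.0564.

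*MEG3* lies on chromosome 14 from 100779410 to 100861031. It had 0 reads in 5 libraries and 1 read in HGC27-control replicate 1. The level that 3 reads would give was between 0.00514 and 0.0116 RPKM across libraries, so levels under these were not detectable at this depth, and no fold is given. The genes around it, *DLK1*, *RTL1*, *MEG8*, *MEG9*, *DIO3* and *DIO3OS*, had at most 4 reads in a group.

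Genes beside the imprinted lncRNAs fell where they were called. Of the 22 genes listed around *H19*, *KCNQ1OT1* and *MEG3*, 13 were tested, 4 fell and 0 rose in the limma fit, with a median difference of -0.26. At an unadjusted p under 0.05, 1 was higher and 7 were lower, a rule whose share over all tested genes was not counted. By voom 1 was called higher and 7 lower, beside 2042 higher and 3066 lower of all 23299 tested genes. *IGF2*, a growth factor gene that shares enhancers with *H19* and is expressed from the other parental copy, was at 15.2, 16.4 and 17.1 RPKM in HGC27-FN1 3′-UTR cells. Its controls were at 37.6, 33.2 and 29.5 RPKM. The difference was -1.03 ± 0.09 (SE, n = 3 per group; limma, adjusted p = 0.00246), opposite in sign to that of *H19*. INS-IGF2, a read-through transcript that overlaps *IGF2*, fell by 0.78 (adjusted p = 0.0135). Beside *KCNQ1OT1*, *CARS* fell by 0.58, from 13.8 to 9.18 RPKM (adjusted p = 9.62e-04), and *OSBPL5* fell by 0.33 (adjusted p = 0.0324). *CDKN1C*, a cell cycle inhibitor silenced by *KCNQ1OT1* on the paternal copy, had 18 and 52 reads and an adjusted p of 0.124. The share called in the limma fit was 30.8%, beside 13.0% of all tested genes.

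**Figure D4:**
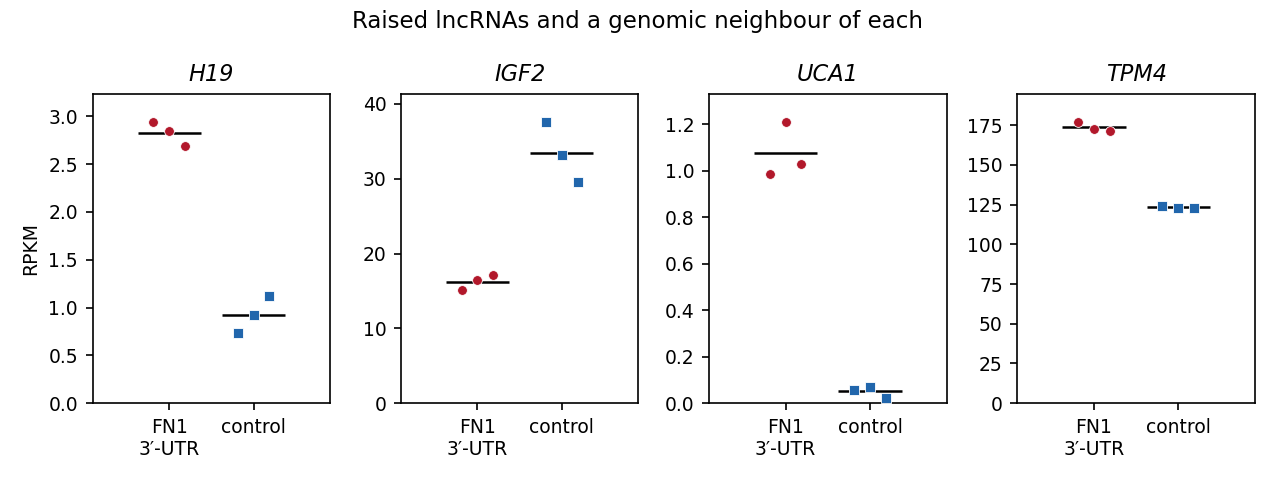
RPKM of *H19*, *IGF2*, *UCA1* and *TPM4* in HGC27-FN1 3′-UTR libraries (circles) and the HGC27-control libraries (squares), with group means as black lines and each axis starting at 0. *H19* is higher and *IGF2* lower in every HGC27-FN1 3′-UTR library, and *UCA1* and *TPM4*, which lies on the same chromosome, are both higher.

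*HOTAIR* and *HOTTIP* were both expressed and their differences were small. *HOTAIR*, on chromosome 12 from 53962308 to 53974956 on the minus strand, was at 9.40, 10.8 and 11.2 RPKM in HGC27-FN1 3′-UTR libraries. The controls were at 9.90, 9.58 and 8.91 RPKM, so the groups overlapped through replicate 1. The difference was 0.14, with an interval from -0.04 to 0.32 (limma, adjusted p = 0.279). A 97-base row inside it on the other strand, HOTAIR_3, went the other way, with 385 and 549 reads, groups that did not overlap and a fall of 0.14 (adjusted p = 0.0188).

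*HOTTIP* lies on chromosome 7 from 27198575 to 27207259 at the 5′ end of the HOXA cluster, plus strand. It was at 5.97, 5.94 and 6.21 RPKM in HGC27-FN1 3′-UTR libraries and at 5.45, 5.78 and 5.44 RPKM in controls. The groups lay apart by a small margin, the difference was 0.12 with an interval from 0.01 to 0.22, and the adjusted p was 0.132. Of 23 tested HOX genes and antisense transcripts around the pair, 0 rose and 0 fell in the limma fit. Their median difference was 0.01, and 13.0% of all tested genes were called. At an unadjusted p under 0.05, 5 of the HOX list were higher and 1 lower, where the share over all tested genes was not counted. Voom on the recovered reads also called 0 of the list in each direction, beside 2042 higher and 3066 lower of all 23299 tested genes. *HOXA11-AS* was at 6.93 against 6.16 RPKM (adjusted p = 0.0721) and *HOXC11*, which overlaps *HOTAIR*, at 3.00 against 2.63 RPKM (adjusted p = 0.0809). *HOXA13*, which overlaps *HOTTIP*, was at 5.97 against 5.62 RPKM with overlapping groups.

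*HOTAIR* is known to bind Polycomb repressive complex 2 and the LSD1 complex, and *HOTTIP* the WDR5 and MLL complex. Of the 27 tested genes of these complexes and their partners 0 rose and 5 fell in the limma fit, with a median of -0.06. At an unadjusted p under 0.05, 0 were higher and 10 lower, a rule whose share over all tested genes was not counted. By voom 0 were called higher and 11 lower, beside 2042 higher and 3066 lower of all 23299 tested genes. *EZH2*, the methyltransferase of Polycomb repressive complex 2, was at 35.2, 35.6 and 36.0 RPKM against 46.3, 44.9 and 42.4 RPKM. It fell by 0.32 (limma, adjusted p = 0.00573). *JARID2*, a cofactor of that complex, fell by 0.26. *EHMT2*, a histone H3 lysine methyltransferase, fell by 0.26, and *RCOR1*, a partner of LSD1, by 0.20. The share called in the limma fit was 18.5%, beside 13.0% of all tested genes.

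*PVT1*, which lies downstream of *MYC* on chromosome 8 from 127794533 to 128101253, was at 12.4, 12.4 and 12.3 RPKM in HGC27-FN1 3′-UTR libraries. The controls were at 13.1, 13.0 and 13.7 RPKM. The groups lay apart with every HGC27-FN1 3′-UTR library lower, and the difference was -0.10 with an interval from -0.18 to -0.02 (limma, unadjusted p = 0.0212, adjusted p = 0.0998). *MYC*, the transcription factor gene beside it, was at 81.1, 78.4 and 81.9 RPKM against 97.4, 102 and 109 RPKM and fell by 0.35 (adjusted p = 0.00733). A row at the 5′ end of *PVT1*, PVT1_1, covers bases 9 to 202. It had 1826 and 2520 reads and a difference of -0.08 (limma, adjusted p = 0.238). The 4 rows of miRNA genes hosted by *PVT1* that were listed had at most 7 reads in a group.

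*TUG1* lies on chromosome 22 from 30970677 to 30979395, plus strand. It was the steadiest of the lncRNAs, with 10.4, 10.0 and 10.0 RPKM against 9.96, 9.71 and 9.70 RPKM and a within-group coefficient of variation of 1.82%. The groups lay apart by a narrow margin, and the difference of 0.05 had an interval from -0.03 to 0.13 (limma, adjusted p = 0.363), whose upper end is a 1.097-fold rise. Its neighbours *MORC2* and *SMTN* fell by 0.28 and 0.29 (adjusted p of 0.0128 and 0.0123).

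Of the 17 tested genes listed around *PVT1*, *TUG1*, *UCA1*, *NEAT1* and *MALAT1*, 1 rose and 4 fell, with a median of -0.11 and 29.4% called beside 13.0% of all tested genes. The one that rose was *TPM4*, a tropomyosin gene on the chromosome of *UCA1*, from 123 to 174 RPKM (limma, adjusted p = 4.79e-04). The other genes near *UCA1* were either close to absent, as for the CYP4F genes with at most 28 reads in a group, or not called, as for *RAB8A* at 40.4 against 38.4 RPKM. *DPF2*, near *NEAT1* and *MALAT1*, fell by 0.40 (adjusted p = 0.0272).

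By mean RPKM over the 6 libraries, the order was *MALAT1* at 15.5, *NEAT1* at 14.1, *PVT1* at 12.8, *TUG1* at 9.97, *HOTAIR* at 9.95, *HOTTIP* at 5.80, *H19* at 1.87, *UCA1* at 0.563, *KCNQ1OT1* at 0.180 and *MEG3* below 0.001. The ranges over libraries of *MALAT1* and *NEAT1*, of *NEAT1* and *PVT1*, and of *TUG1* and *HOTAIR* overlapped, so these neighbours were not separated beyond their spread. *H19* and *UCA1* overlapped because the *UCA1* level in HGC27-FN1 3′-UTR cells reached that of *H19* in controls, and *UCA1* was above *KCNQ1OT1* in the 3 libraries with the overexpressed 3′-UTR and below it in the 3 controls. Among 2398 lncRNA rows *MALAT1* ranked at 66 and *UCA1* at 670 by RPKM. By reads, which favour long transcripts, *NEAT1* ranked at 3 and *MALAT1* at 8.

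In 31 cases a row shares exon bases with one of the 10 lncRNAs, on either strand, as the H19_2 and AC004510.3 rows do. Of these, 26 were tested and 3 were called, namely H19_2, AC004510.3 and HOTAIR_3, where 13.0% of all tested genes were called. Of the 31, 15 are on the strand of the lncRNA and 16 on the opposite strand. How reads in the shared bases were divided is not known here, since neither the strand setting nor the rule for such reads is given.

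Other well-known lncRNAs, listed with earlier results of these data known, also moved in both directions. Of 28 tested, 4 rose and 2 fell, with a median of 0.02 and 21.4% called beside 13.0% of all tested genes. *LINC00152*, studied in gastric cancer, was at 3.68, 2.97 and 3.17 RPKM against 1.81, 1.85 and 1.95 RPKM and rose by 0.77 (limma, adjusted p = 0.00520). *MIR22HG*, *HOXA-AS2* and *DANCR* rose by 0.58, 0.49 and 0.37. *GAS5*, a snoRNA host gene, was at 52.3, 52.6 and 52.2 RPKM against 73.8, 75.8 and 76.8 RPKM and fell by 0.53 (adjusted p = 4.77e-04). *ZFAS1*, another snoRNA host, fell by 0.34.

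**Figure D5:**
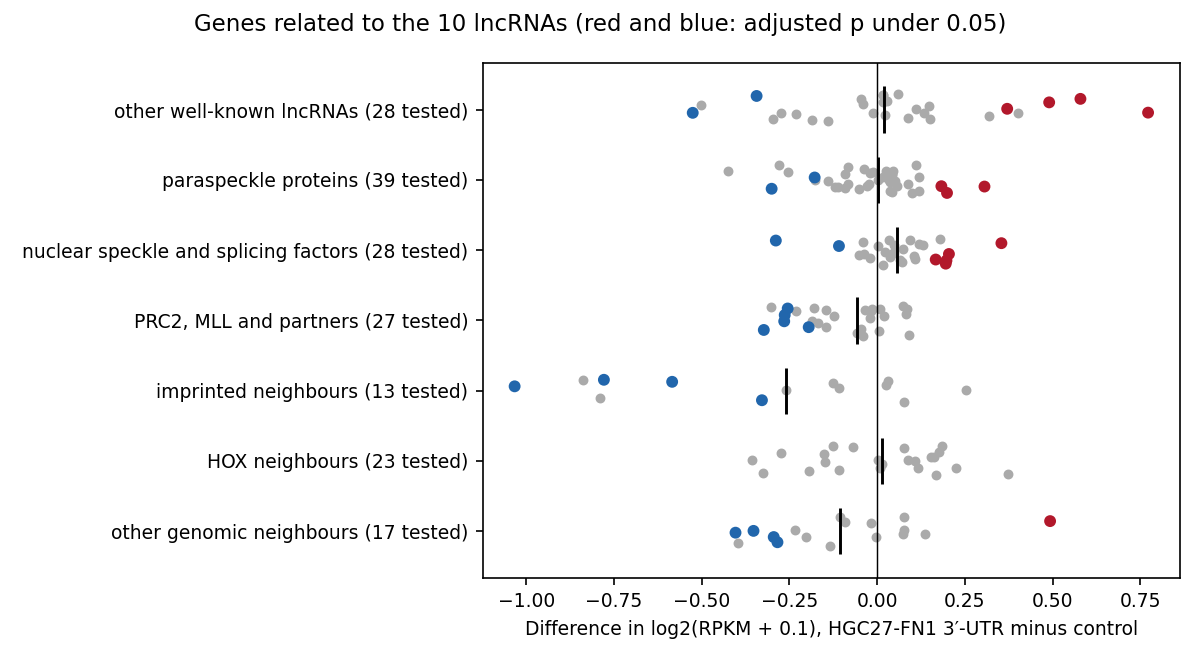
Difference in log2(RPKM + 0.1) of each tested gene in the 7 lists related to the lncRNAs, HGC27-FN1 3′-UTR minus HGC27-control, with called genes in red (higher) or blue (lower), other genes in grey and list medians as black lines; vertical scatter has no meaning. The called genes around the imprinted lncRNAs and of the Polycomb and MLL list all lie to the left, and no HOX neighbour is coloured.

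Markers of epithelial cells differed between the groups. All 5 genes listed, *EPCAM*, *CDH1*, *KRT8*, *KRT18* and *KRT19*, rose, and their summed level lay between 18.2 and 27.0 RPKM with the overexpressed 3′-UTR and between 2.59 and 2.99 RPKM in controls. A larger number of epithelial-like cells and more RNA per cell cannot be told apart in such libraries. The mesenchymal markers summed to between 301 and 339 RPKM, most of it *VIM* at 286 to 324 RPKM. *VIM* and *ZEB1* were not called. *CDH2*, the other mesenchymal marker listed, had 19 reads in HGC27-FN1 3′-UTR libraries and 18 in controls and was not tested. *H19* and *UCA1* rose in the same libraries as the epithelial markers, and the part of these markers in the rise was not tested. Endothelial markers had 1 read in all. Of the 3 fibroblast markers, *LUM* rose by 0.98 (limma, adjusted p = 0.00711), while *DCN* at 2.02 against 1.64 RPKM (adjusted p = 0.102) and *PDGFRA* at 1.99 against 2.31 RPKM (adjusted p = 0.117) were not called.

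The genes most like each lncRNA were sought among those with a mean RPKM of at least 1, by Pearson's r of log2(RPKM + 0.1) over the 6 libraries, as a description. For *UCA1* they were *ACOT9*, *COL11A1* and *GCC2*, with r between 0.996 and 0.999, and for *H19* they were *CYR61*, *PCDHGB7* and *PCDHGB3*, with r between 0.998 and 0.999. These genes share the group difference, and 468 and 650 genes had an r above 0.95 with *UCA1* and *H19*. For *HOTTIP* the nearest was *HOXA11-AS* of the same cluster, with r of 0.993, followed by *DPY19L3* and *TOPBP1*. For *PVT1* the nearest was *TOMM40L* with r of 0.998, then RP11-417N10.4 and *HES6*, and for *TUG1* they were *HOOK3*, *GMFB* and AC025918.2. *NEAT1* was followed by a transcript with only a clone name, RMST_8 and *SPACA6*, *MALAT1* by MT-TM, RP11-977G19.5 and *SERTAD3*, *HOTAIR* by RP11-332H14.2, *KIAA0907* and *SNORD57*, and *KCNQ1OT1* by *ZNF507*, *ZNF181* and *SLC7A11-AS1*. Among the lncRNAs themselves, *NEAT1* had an r of 0.898 with *MALAT1* and 0.904 with *HOTAIR*, whose values also share library and depth.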

How the data were processed

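RNA-seq of 6 HGC27 libraries was analysed, grouped by the sample labels. Per the labels and methods, mRNA libraries were strand-specific, and the authors deposited 1 table of RPKM per library. The submitters' processing notes name Trimmomatic 0.36, STAR 2.5.3a, featureCounts, Subread 1.5.1 and GRCh38; the annotation release, strand setting and handling of duplicates are not given in the sources used here. Reads were recovered as whole multiples of 1 read for 100% of values (tolerance 0.01).

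Genes that reached 0.1 RPKM in at least 3 libraries were tested with limma 3.58.1 (R 4.3.3) on log2(RPKM + 0.1), with a trend in the prior variance and group as the only term. The fit was tested on simulated data. Alternatives were the pseudocount, filter, scaling, voom, call rule, replicate block and each library left out, the last with the tested genes kept. The 10 lncRNAs and all gene lists were chosen with earlier results of these data known. Named list genes were those with an adjusted p under 0.05, at most the 4 with the largest change; others named were chosen after their values were seen or overlap a lncRNA. Transcripts and symbols were from GENCODE release 29 and miRNAs from RefSeq. Python 3.11.15, pandas 2.3.3, numpy 2.4.6, scipy 1.17.1 and matplotlib 3.10.9 were used.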

Additional observations from a re-analysis of the deposited data

How the results depend on the processing

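The rise of *H19* and *UCA1* held under every alternative in which they were tested, with *H19* differences from 0.997 to 1.67 and adjusted p up to 0.0275, and *UCA1* differences from 0.98 to 4.41 and adjusted p up to 0.0142. The number of lncRNAs called, and of those called higher, was 1 in place of 2 where only genes with a mean RPKM of at least 1 were tested, because *UCA1* was then left out, and 2 under the other 13 alternatives. With 1 library left out, *MALAT1* ranged from -0.0845 to 0.145, with a change of sign without HGC27-FN1 3′-UTR replicate 3 (-0.0059) or HGC27-control replicate 3, and *KCNQ1OT1* ranged from -0.0400 to 0.0659, with a change of sign without HGC27-FN1 3′-UTR replicate 1. None of these was called.

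Over all genes, 3025 were called (1310 higher, 1715 lower). In a fit with the replicate block the counts were 1162, 564 and 598, with voom 5108, 2042 and 3066, and at an absolute log2 fold change above 1 with unadjusted p under 0.05 they were 575, 385 and 190. Leaving out 1 library at a time gave 903 to 1864 in all, 472 to 901 higher and 431 to 1010 lower, the fewest without HGC27-control replicate 2. Median-ratio scaling turned the share of calls that were higher from 43.3% to 56.0%, with a median difference of -0.0031 in place of -0.0352. Libraries with the same replicate number did not deviate together (correlations 0.0024, 0.021 and 0.010), although each correlated best with its own number, so they were not treated as paired. With the block, 0 of the 5 called speckle genes that were higher and 1 of 2 lower were called. For the paraspeckle list these were 1 of 3 and 1 of 2. The Polycomb and MLL list kept 3 of 5 and the imprinted list 2 of 4. The 3 histone genes listed as lacking a poly(A) tail kept 1 call. The genomic neighbours kept 1 of 1 higher and 3 of 4 lower. Of the other lncRNAs 1 of 4 higher and 2 of 2 lower were called, without *MIR22HG*, *HOXA-AS2* and *DANCR* (adjusted p 0.0836, 0.0772 and 0.0846), and *FN1* had an adjusted p of 0.0852.

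The precision of *UCA1* in controls and of *MEG3* is limited by their reads.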
